A study of Mus musculus with 26 samples.

Results

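Condensin is the ring-shaped protein complex that compacts chromosomes for mitosis, and this account describes where the genes of its 8 subunits lie relative to domain boundaries in mouse embryonic stem cells (ESCs). The genes were taken by name: Smc2, Smc4, Ncaph, Ncapd2, Ncapg, Ncaph2, Ncapd3 and Ncapg2, which are 8 of the 21521 protein-coding genes placed on chromosomes with boundaries. Domains were measured by Micro-C, a chromosome conformation assay that cuts chromatin with micrococcal nuclease and joins fragments lying close together in the nucleus. All 26 libraries of the study come from a C57BL/6J line derived from Bruce-4 cells whose cohesin subunit RAD21 carries a dTAG degradation tag, in the G1 phase. ESCs received 500 nM dTAG to degrade RAD21 (6 libraries), 20 µM A485, which blocks the histone acetyltransferases CBP and p300 (6 libraries), or 0.05% v/v DMSO as vehicle (6 libraries), and epiblast-like cells (EpiLCs) received dTAG (4 libraries) or DMSO (4 libraries). Replicates 4 to 6 of the ESC dTAG and A485 groups have a growth protocol that mentions EpiLC differentiation while their cell type label reads embryonic stem cell. The data used here are 1 list of 3515 boundary intervals of 25 kb. The descriptions of the 6 DMSO-treated ESC libraries name this list, and it was taken as their pool. Every value below is thus a property of 1 list, with no replicate error, no sample values and no test between conditions. The list holds no expression values, and the cell type was not checked against marker genes.

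Condensin extrudes chromatin loops with the energy of ATP. Its core is a pair of SMC ATPases, SMC2 and SMC4, closed by a kleisin subunit that also binds a pair of HEAT-repeat subunits. Condensin I uses the kleisin NCAPH with NCAPD2 and NCAPG and reaches chromosomes after the nuclear envelope breaks down, whereas condensin II uses NCAPH2 with NCAPD3 and NCAPG2 and is nuclear throughout the cell cycle. Cohesin, the complex degraded in the study, is built on the same plan and forms the loops between boundaries in interphase.

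The 8 genes lay on 8 different chromosomes, and 2 of them, Smc2 and Ncapg, held a whole boundary interval inside the gene. Of all protein-coding genes 3.49% did so. The other 6 lay in 6 different domains, a domain being the stretch between neighbouring boundaries that holds the midpoint of the gene. Distances from the gene body to the nearest boundary were 0 for Smc2 and Ncapg, 30.2 kb for Ncapd3, 53.8 kb for Ncaph, 115 kb for Smc4, 155 kb for Ncapg2, 227 kb for Ncaph2 and 343 kb for Ncapd2. Their median was 84.6 kb, against 97.5 kb for all protein-coding genes with quartiles of 20.1 and 228 kb. A distance of 0, as for 2 of the 8, was found for 15.1% of all protein-coding genes. The condensin genes thus ranged from lying across a boundary to lying deep inside a domain.

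**Figure D1:**
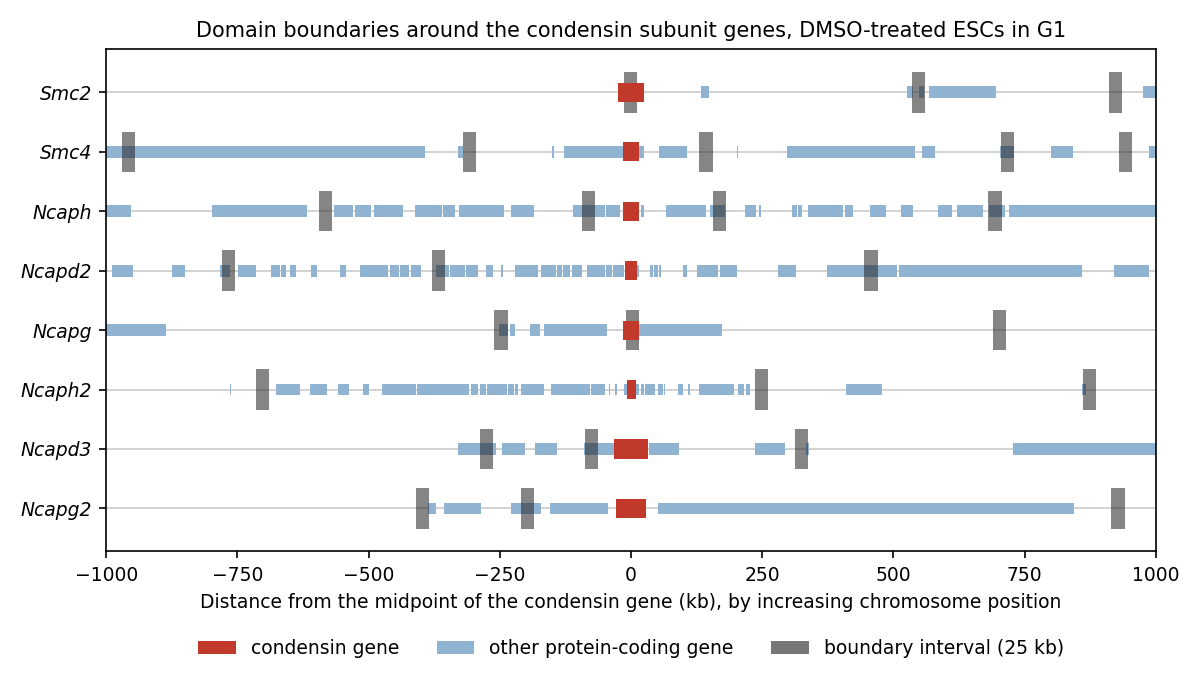
Map of the 1000 kb on either side of each condensin gene. Each row is a gene centred on its midpoint, red bars are condensin genes, blue bars other protein-coding genes and dark bars the 25 kb boundary intervals of DMSO-treated ESCs. A boundary interval lies inside Smc2 and Ncapg, and the nearest one to Ncapd2 is 343 kb away.

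Smc2 encodes an SMC ATPase shared by both condensins. It occupies 52439221 to 52488365 on chromosome 4 in GRCm38 (mm10), 49.1 kb, and the boundary at 52450001 to 52475000 lies inside it. Smc2 is on the plus strand, so the boundary began 10.8 kb after the annotated start, and the gene continued for 13.4 kb beyond it. The annotation used gives whole gene extents, and whether the interval holds exons was not analysed here. The midpoint of Smc2 fell in the interval, and no other protein-coding gene overlapped it. Of the 3515 boundaries, 746 (21.2%) likewise lay inside a protein-coding gene and held no end of one.

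The domains on either side of the Smc2 boundary differed in length and in gene content. On the side of the Smc2 start, the domain from 49675001 to 52450000 measured 2775 kb, and 98.1% of all 3495 domains were shorter. It held the midpoints of only 3 protein-coding genes, Grin3a, a glutamate receptor subunit gene, Ppp3r2, a calcineurin subunit gene, and Cylc2, a gene of the sperm head cytoskeleton, beside 8 pseudogenes. The nearest protein-coding gene on this side was Cylc2, 1189 kb away. On the side of the Smc2 end, the domain from 52475001 to 53000000 measured 525 kb and held 6 protein-coding genes, namely Toporsl, Nipsnap3a and the olfactory receptor genes Olfr270, Olfr272, Olfr273 and Olfr275. This domain also held 5 pseudogenes. The nearest of its protein-coding genes, Toporsl, lay 108 kb past the end of Smc2. The far boundaries of the pair both held gene ends, those of Rnf20 and Grin3a below and those of Nipsnap3a and Nipsnap3b above. Of all 3515 boundaries, 50.8% held no end of a protein-coding gene.

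Ncapg encodes a HEAT-repeat subunit of condensin I. It occupies 45669891 to 45700547 on chromosome 5, 30.7 kb on the plus strand, and the boundary at 45675001 to 45700000 covered most of it. The gene began 5.11 kb before the interval and ended 0.547 kb after it. Ncapg was thus the only condensin gene with an end in a boundary or within 10 kb of one, 1 of 8, where 18.3% of all protein-coding genes lay this close. Smc2, whose nearer end lay 10.8 kb from its boundary, was just outside that limit. The list does not place a boundary within its 25 kb interval, so margins such as these are finer than it resolves. The Ncapg boundary also held an end of Lcorl, a gene for a DNA-binding protein, whose extent overlapped that of Ncapg by 3367 bases.

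The boundary inside Ncapg separated a short domain with genes from a longer one almost without. Below it, the domain from 45450001 to 45675000 measured 225 kb and held 4 protein-coding genes, Clrn2, Lap3, Med28 and Fam184b, of which Med28 encodes a Mediator subunit and Lap3 a leucine aminopeptidase. Above it, the domain from 45700001 to 46375000 measured 675 kb and held 1, Lcorl. The densities were 1.78 genes per 100 kb below and 0.148 above. At Smc2 they were 0.108 per 100 kb below and 1.14 above. In both cases a gene-poor domain met a richer one within the condensin gene, the poor one on the start side of Smc2 and on the end side of Ncapg. The median over all 3495 domains was 0.667 genes per 100 kb. How often neighbouring domains differ this much was not computed. After Lcorl the next protein-coding gene above Ncapg was Slit2, 2281 kb away, beyond the following boundary.

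A gene can hold a 25 kb interval only if it is longer than that, and 6 of the 8 condensin genes were. Among all protein-coding genes over 25 kb, 8.74% held a whole boundary. Smc2 and Ncapg belong to the class of 25 to 50 kb with Smc4 and Ncaph, and in that class 3.33% of 3669 genes held one. Ncapg2 and Ncapd3 belong to the class of 50 to 75 kb, in which 8.01% of 1586 genes did, but neither of them held a boundary. Ncapd2 at 24.1 kb and Ncaph2 at 17.1 kb were too short. With 8 genes chosen by name these counts are a description and were not tested.

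**Figure D2:**
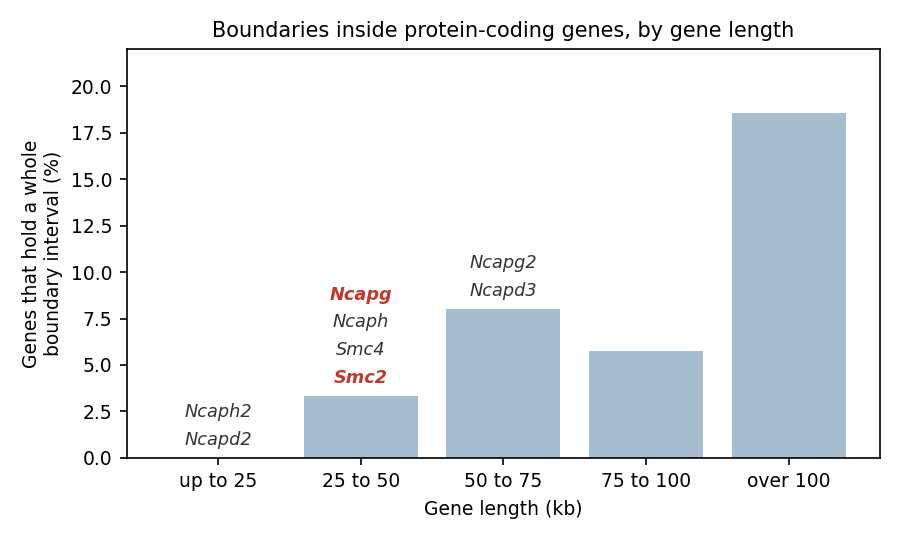
Share of protein-coding genes that hold a whole 25 kb boundary interval (vertical axis, percent), by gene length in kb (horizontal axis). Condensin genes are written above the bar of their class, in bold red where they hold a boundary. Smc2 and Ncapg are in the class of 25 to 50 kb, where 3.33% of genes hold one.

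Of the shared SMC pair, Smc4 lay within a domain. It occupies 69004738 to 69034623 on chromosome 3 in a domain of 425 kb from 68725001 to 69150000, with the boundaries 280 kb below and 115 kb above. The domain held 5 protein-coding genes: 1110032F04Rik, Ift80, Smc4, Trim59 and Kpna4. The extent of Ift80, an intraflagellar transport gene, reached to 58 bases below Smc4, and that of Trim59 to 0.669 kb above it. Kpna4, an importin gene, lay 37.6 kb above. Neither flanking boundary held an end of a protein-coding gene, and neither did 50.8% of all 3515 boundaries. Within 1 Mb of its midpoint Smc4 had 5 boundaries, the most of the 8 genes, against 3 or 4 for the other 7 and a median of 3 for all protein-coding genes.

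Smc4 is also the host of a pair of miRNA genes, Mir15b and Mir16-2, lying 140 kb from the nearest boundary. Mir15b ends at 69009835 and Mir16-2 begins at 69009902. miR-15 and miR-16 are known to restrain cell cycle genes. No other condensin gene contained an annotated miRNA. The mature sequences from RefSeq (GRCm38.p6) are shown because the pair shares the domain of Smc4. They are on the plus strand of chromosome 3, and capitals mark the seed, bases 2 to 8.
mmu-miR-15b-5p: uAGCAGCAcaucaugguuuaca
mmu-miR-16-5p: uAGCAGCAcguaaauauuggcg
mmu-miR-15b-3p: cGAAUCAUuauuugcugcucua
mmu-miR-16-2-3p: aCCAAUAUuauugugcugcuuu
The 5p forms of both hairpins share the seed, and the 3p forms have different ones.

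The condensin I genes lay in very different settings. Ncaph, the kleisin gene, occupies 127103809 to 127133954 on chromosome 2 in the shortest domain of the group, 225 kb from 127050001 to 127275000, and only 9.16% of all domains were shorter. Ncaph lay 53.8 kb from the lower boundary and 141 kb from the upper. The domain held 7 protein-coding genes, Blvra, Ncaph, Itpripl1, 1810024B03Rik, Snrnp200, Ciao1 and Tmem127, among them Snrnp200 for a spliceosomal helicase and Ciao1 for an iron-sulfur assembly factor. The lower boundary lay inside Ap4e1, an adaptor complex gene, and the upper held an end of Stard7, a lipid transfer gene.

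Ncapd2, the HEAT-repeat subunit gene of condensin I on chromosome 6 from 125168007 to 125192100, was the farthest of the 8 from a boundary, 343 kb below and 433 kb above. Its distance exceeded that of 85.9% of protein-coding genes. The domain of 800 kb, from 124825001 to 125625000, held 30 protein-coding genes, 3.75 per 100 kb. Its nearest neighbours were Gapdh, the glycolysis gene, 1.54 kb below, then Iffo1 at 6.22 kb, and Mrpl51, a mitochondrial ribosome gene, 0.1 kb above, then Vamp1 at 23.5 kb. Scarna10, a guide RNA gene for RNA modification, lay inside Ncapd2. The lower boundary held ends of Spsb2, Tpi1 and Usp5, and the upper lay inside Vwf, the von Willebrand factor gene.

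The distances of the condensin II genes were 30.2, 155 and 227 kb, against 0, 53.8 and 343 kb for those of condensin I. The ranges overlapped. Ncapd3, the HEAT-repeat subunit gene on chromosome 9 from 27030165 to 27096522, was the closest, 30.2 kb above the boundary at 26975001 to 27000000. As Ncapd3 is on the plus strand, its start was the end that faced this boundary. Its domain of 375 kb held 5 protein-coding genes, Thyn1, Vps26b, Ncapd3, Jam3 and Igsf9b. The lower boundary held ends of Acad8 and Thyn1, and the upper of Spata19.

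Ncaph2, the kleisin gene of condensin II on chromosome 15 from 89355719 to 89372850, lay in the domain richest in genes, with 36 protein-coding genes in 925 kb from 88675001 to 89600000, 3.89 per 100 kb. It was 681 kb from the lower boundary and 227 kb from the upper. Neither of these held an end of a protein-coding gene, like 50.8% of all boundaries. The extent of Lmf2, a lipase maturation gene, reached to 25 bases below Ncaph2, and Miox, the myo-inositol oxygenase gene, lay 18.7 kb below. Above Ncaph2, Odf3b lay 4597 bases and Klhdc7b 11.2 kb away. The extents of Sco2, a cytochrome c oxidase assembly gene, and Tymp, the thymidine phosphorylase gene, overlapped Ncaph2 by 1221 and 1220 bases. Ncapg2, the HEAT-repeat subunit gene on chromosome 12 from 116405351 to 116463532, had the opposite setting. Its domain of 1100 kb, from 116250001 to 117350000, was the longest of the 6 and held 3 protein-coding genes, Esyt2, Ncapg2 and Ptprn2, which is 0.273 per 100 kb. Ncapg2 lay near the lower end of this domain, 155 kb from one boundary and 886 kb from the other, and the lower boundary lay inside Wdr60.

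The 6 domains had a median length of 612.5 kb, against 675 kb for the domains of all 19750 protein-coding genes whose midpoints lie in one. Measured by gene rather than by domain the comparison allows for long domains holding more genes, and the median over the 3495 domains themselves was 500 kb. The median gene count was 6 for the condensin domains and 12 by gene over all, and the median density 2.22 and 1.78 per 100 kb. The condensin domains fell into a gene-rich pair, those of Ncapd2 and Ncaph2 with 30 and 36 genes, and 4 with 3 to 7 genes. The subunits of the same complex did not fall together, since the rich pair joins a condensin I and a condensin II gene.

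**Figure D3:**
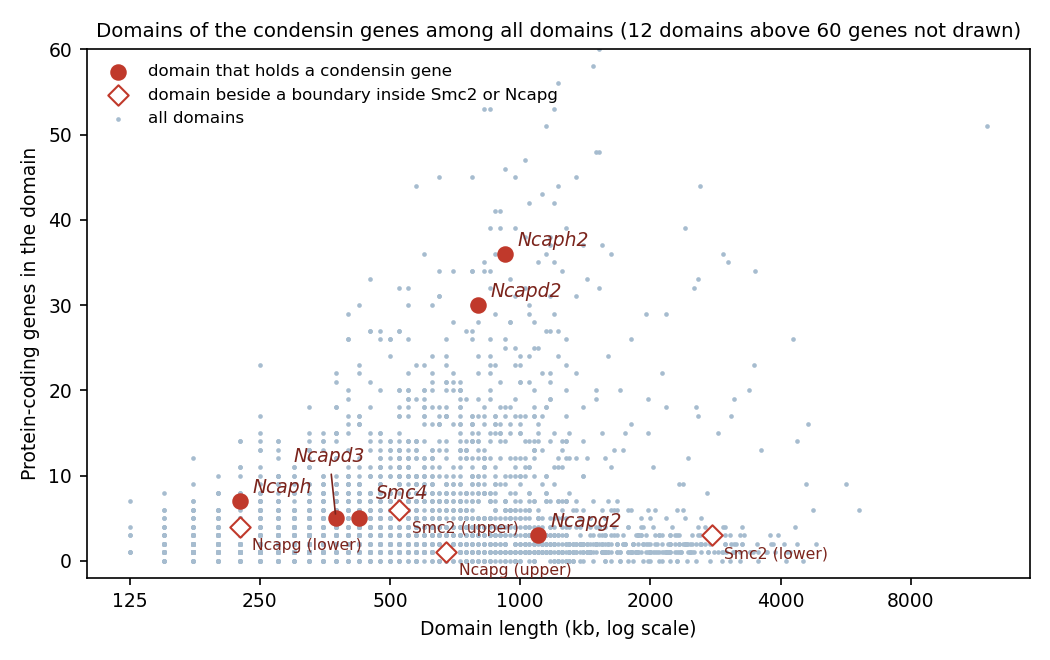
Domain length in kb on a log scale against the number of protein-coding genes in the domain. Filled red points are the 6 domains that hold a condensin gene, open diamonds the 4 domains beside the boundaries inside Smc2 and Ncapg (lower and upper by chromosome position), and small points all domains, without 12 that hold over 60 genes. Ncapd2 and Ncaph2 lie in domains of 30 and 36 genes and the other 4 in domains of 3 to 7.

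Several condensin genes shared a start region with a neighbour. A start site and strand were found in RefSeq for 7 of the 8 genes, all but Smc4. Of these, 3 had the start of a protein-coding gene on the opposite strand within 1 kb upstream, the arrangement of a divergent pair. Among 17274 protein-coding genes 7.61% did, and among genes of cohesin and its factors with a known start 5 of 13. Ncaph2 and Lmf2 had starts 60 bases apart, Ncapd3 and Vps26b, a retromer subunit gene, 71 bases apart, and Ncapd2 and Mrpl51 614 bases apart. The Ncapd2 start used lies inside the gene extent, which ends 0.1 kb from Mrpl51. For Smc2 and Ncapg, the genes that hold a boundary, the nearest divergent starts were 2757 and 30.4 kb away. The 1 kb limit was chosen after these positions had been seen.

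The promoter windows, 250 bases before and 50 after the start, were searched on both strands for elements known from cell cycle genes. The cell cycle homology region, TTTGAA or TTCGAA, at which the DREAM and MuvB complexes act, was found in 5 of the 7 windows (Smc2, Ncapg, Ncapd2, Ncapg2 and Ncaph2), and in 17.7% of 17274 windows. The CCAAT box, CCAAT, bound by NF-Y, was found in 3 (Smc2, Ncapg and Ncapd2), and in 39.6% of all. These 3 windows held both elements, as did 7.53% of all windows. The E2F elements TTCCCGC and TTGGCGC were found in 2 (Ncapg, Ncapg2) and 3 (Ncaph, Ncapd2, Ncapd3) windows, and in 6.09% and 3.27% of all. The GC box GGGCGG was found in 6 of 7 windows, all but that of Ncaph, and in 46.9% of all. TATAAA was found in 0 of the 7 and in 13.4% of all, and a relaxed form of the CTCF core motif, in which several positions may hold any base, in 0 and in 2.35%. Matches to different motifs did not overlap in the 7 windows. Such matches describe letters and are not evidence of binding.

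The 250 bases upstream of the start are shown for the 3 genes that had both elements, which include both genes that hold a boundary, and for Ncaph2, whose window carries the rarer TTCGAA and whose start faces that of Lmf2. The start used for Ncapd2, 125191586, lies inside the gene extent, which runs to 125192100. The stretch shown for Ncapd2 therefore lies within that extent. That of Ncapg overlaps the extent of Ncapg, which begins at 45669891, in part. That of Ncaph2 lies mostly within the extent of Lmf2, which reaches to 25 bases below Ncaph2. The sequences are from RefSeq (GRCm38.p6), written along the strand of the gene. Capitals mark matches to the cell cycle homology region and the CCAAT box on either strand. A box on the opposite strand reads as ATTGG here. They are chr4:52438971-52439220 on the plus strand (Smc2), chr5:45669675-45669924 on the plus strand (Ncapg), chr6:125191587-125191836 on the minus strand (Ncapd2) and chr15:89355469-89355718 on the plus strand (Ncaph2).
Smc2: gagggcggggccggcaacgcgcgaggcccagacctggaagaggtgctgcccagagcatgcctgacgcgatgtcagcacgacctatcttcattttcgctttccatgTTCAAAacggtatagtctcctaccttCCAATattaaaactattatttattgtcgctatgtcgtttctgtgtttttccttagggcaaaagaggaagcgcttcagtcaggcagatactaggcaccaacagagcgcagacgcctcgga
Ncapg: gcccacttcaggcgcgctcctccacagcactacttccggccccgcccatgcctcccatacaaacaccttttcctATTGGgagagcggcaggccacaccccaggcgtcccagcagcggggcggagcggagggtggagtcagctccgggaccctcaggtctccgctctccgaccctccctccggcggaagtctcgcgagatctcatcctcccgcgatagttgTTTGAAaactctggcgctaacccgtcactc
Ncapd2: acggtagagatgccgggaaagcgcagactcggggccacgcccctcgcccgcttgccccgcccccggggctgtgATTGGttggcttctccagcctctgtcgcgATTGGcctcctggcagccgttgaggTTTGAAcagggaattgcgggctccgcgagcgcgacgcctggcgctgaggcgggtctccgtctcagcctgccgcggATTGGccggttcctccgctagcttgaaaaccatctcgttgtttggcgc
Ncaph2: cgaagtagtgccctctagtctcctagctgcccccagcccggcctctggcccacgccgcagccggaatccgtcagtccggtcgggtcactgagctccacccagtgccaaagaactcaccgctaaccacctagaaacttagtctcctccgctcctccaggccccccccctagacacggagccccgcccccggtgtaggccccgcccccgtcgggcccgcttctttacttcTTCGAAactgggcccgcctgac
Ncapd2 had 3 CCAAT boxes in this stretch, the most of the 4, and Smc2 and Ncapg had 1 each. The GC content of the whole windows ran from 52.7% for Smc2 to 69.3% for Ncapd3, against a median of 56.3% over all windows.

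The genes of the other SMC complexes and of mitotic chromosomes were set beside the condensin genes with the same measures. Within 10 kb of a boundary by a gene end lay 1 of 8 condensin genes, 6 of 18 genes of cohesin and its loading, release and acetylation factors, 5 of 9 genes of the SMC5/6 complex, which acts in DNA repair, and 9 of 15 genes of mitotic chromosome proteins and their regulators, against 18.3% of all protein-coding genes. Among those near were Esco2, Hdac8, Pds5b and Smc1b of the cohesin list, Nsmce2, Nsmce4a, Slf2 and Smc5 of the SMC5/6 list, and Birc5, Bub1, Cdk1 and Cenpa of the mitotic list. Median distances were 84.6 kb for condensin, 33.5 kb for cohesin, 7.53 kb for SMC5/6 and 0 for the mitotic list, against 97.5 kb for all protein-coding genes. A whole boundary lay inside 2 of 8 condensin, 3 of 18 cohesin, 0 of 9 SMC5/6 and 0 of 15 mitotic genes. Of all protein-coding genes 3.49% held one, and of those over 25 kb 8.74%. A gene up to 25 kb cannot hold one, so these counts depend on gene length. Median gene lengths were 30.4, 45.5, 53.9 and 18.5 kb in the same order. Among the SMC ATPase genes, Smc1b held a whole boundary as Smc2 did, and Smc3 and Smc5 had an end inside one. Smc6 lay 5.22 kb from a boundary, and Smc4 and Smc1a lay 115 and 288 kb away. The topoisomerase gene Top2a, whose product works with condensin on mitotic chromosomes, lay 293 kb from a boundary, the farthest of the mitotic list. A divergent start within 1 kb upstream was found for 3 of 7 condensin and 5 of 13 cohesin genes with a known start. It was found for 1 of 6 SMC5/6 and 2 of 12 mitotic genes, against 7.61% of all protein-coding genes. The lists are short and were not tested against each other.

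**Figure D4:**
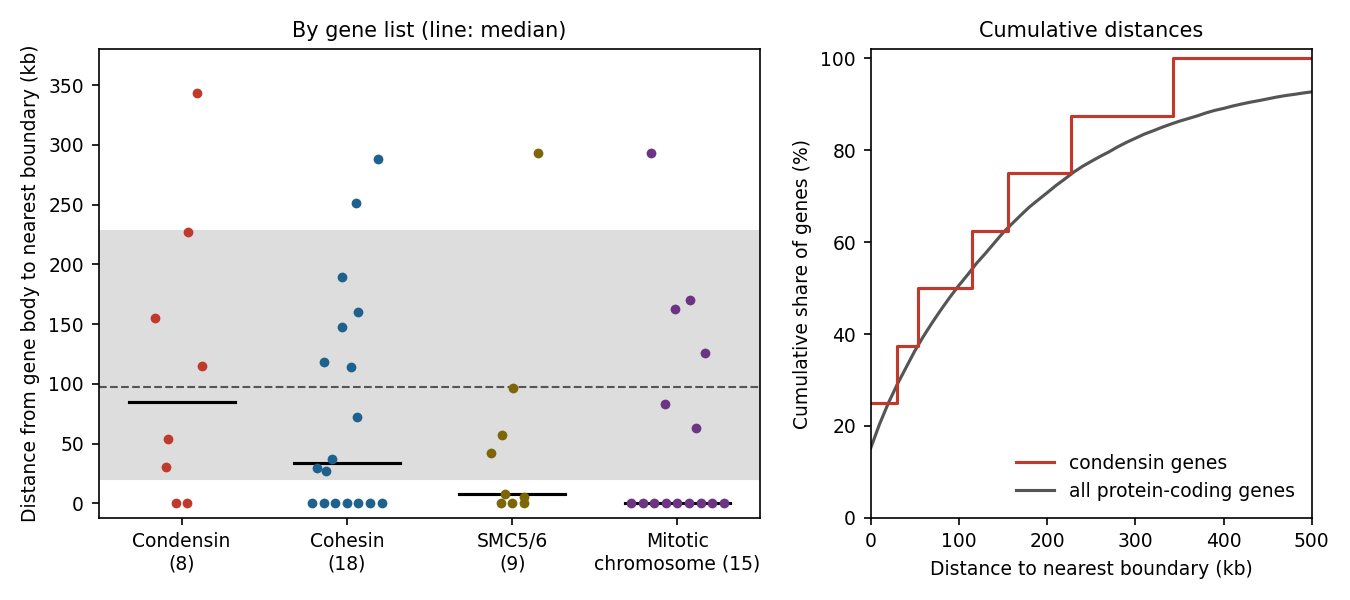
Left, distance in kb from each gene to the nearest boundary for the condensin, cohesin, SMC5/6 and mitotic chromosome lists, with black lines at the medians, and a grey band and dashed line at the quartiles and median of all protein-coding genes. Right, cumulative share of genes (percent) by distance for condensin genes (red) and all protein-coding genes (grey). The condensin genes run from 0 to 343 kb, with a median of 84.6 kb beside 97.5 kb for all genes.

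The count of condensin genes near a boundary depended on the limit. By a gene end inside the interval it was 0 of 8, against 11.7% of all protein-coding genes, and within 50 kb it was 3 of 8, against 35.6%. More than 200 kb from a boundary lay 2 of 8, Ncaph2 and Ncapd2, against 29.2%.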

How the data were processed

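The submitters' processing notes name BWA 0.7.17, Juicer 1.22.01 and the build mm10. The descriptions of the 6 DMSO-treated ESC libraries name the deposited list, which was therefore taken as their pool. How boundaries were called is not given in the sources used here, and contact depth per library is unknown. Each of the 3515 intervals was 25 kb wide, and positions are counted from 1. Where a boundary lies within its interval is not given, so distances and boundaries inside genes refer to whole intervals.

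Genes came from RefSeq GRCm38.p6. Of the genes on chromosomes with boundaries, 345 listed out of position order, taken as lying on scaffolds, were left out, which kept 49209, of them 21521 protein-coding. Distance runs from the gene body to the edge of the nearest interval, and is 0 where they overlap. Strand and start came from RefSeq promoter windows (250 bases before, 50 after), using the outermost start that had a window. For Ncapd2, Ncapg and Ncapg2 this start lay inside the gene extent.

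The members and lists were chosen with earlier results of these data known. No test was run, since 1 pooled list has no replicates. Alternatives were other windows, midpoints, interval centres, start sites, gene overlap, all annotated genes and leaving out boundaries under 200 kb from the previous one. All 8 members were named, with the genes of their domains where these held 12 or fewer, otherwise the 2 nearest on each side, up to 4 genes with ends in a flanking boundary, miRNA genes inside members, and up to 4 near genes per comparison list. The genes that lie across flanking boundaries, the genes that overlap members, Scarna10, Slit2, and the SMC genes and Top2a among the comparison lists were chosen after their values were seen. Protein sequences were not used here. The distance computation was tested on simulated data. Python 3.11.15, numpy 2.4.6, pandas 2.3.3 and matplotlib 3.10.9 were used.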

Additional observations from a re-analysis of the deposited data

How the results depend on the processing

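The count of condensin genes near a boundary, 1 of 8 with a gene end within 10 kb, was 0 with no window, 2 within 25 kb, 3 within 50 kb and 4 within 100 kb. By gene midpoints inside the interval, without a window, it was 2. The shares of all protein-coding genes were 11.7% with no window, 25.9% within 25 kb, 35.6% within 50 kb, 50.3% within 100 kb and 6.52% by midpoints inside the interval. The median distance, 84.6 kb, was 99.6 kb from gene midpoints, 97.1 kb to interval centres and 84.0 kb from the 7 known start sites, against 123, 110 and 124 kb for all protein-coding genes. Counting the nearer gene end also for Smc2 and Ncapg, an alternative chosen after seeing the data, left it at 84.6 kb. The median domain length was 637.5 kb from centre to centre. The median gene count was 12.5 with all annotated genes, and the median density was 2.60 per 100 kb with any overlap and 3.75 with all annotated genes. For domain length, gene count and density, values of all protein-coding genes under these settings are not given here. These alternatives are therefore not comparable with the all-gene values above. Without the 62 boundaries under 200 kb from the previous one, the domain length, gene count and number of different domains kept their values, and the boundaries inside Smc2 and Ncapg remained. No paired analysis was possible because the list gives no value for any single replicate, and no test was made. The list has no score, so a stricter boundary threshold could not be tried, and its depth is unknown.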

Other observations

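The seed shared by the 5p forms of the miRNA pair inside Smc4 occurs in mature miRNAs of 11 mouse loci in the RefSeq table. The nearest to a boundary was Mir322 on chromosome X, 29.3 kb away, and the farthest Mir6342 on chromosome 1, 1278 kb away. Mir15a and Mir16-1 on chromosome 14, the other pair of the same names, lay 82.0 and 81.9 kb from a boundary. Mir15b and Mir16-2, inside Smc4, lay 140 kb from one. These loci were named after their values were seen.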
